A study of Mus musculus with 36 samples.

Results

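The genes described here are 44 genes of the cell division cycle and of mitosis, chosen by name, measured in mouse liver with and without the insulin receptor in hepatocytes. A gene was tested where at least 1 of its probes was well above background, by the scanner software's own flag, on at least 6 of 36 arrays. It was then read through its probe with the highest mean signal. That left 37 of the 44 genes, among 22916 genes tested in all. Of the 37, 27 were well above background on every array and 10 on fewer. The rule did not use any difference between groups.

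Liver RNA of 36 male C57BL/6J mice was hybridised singly to Agilent 1-colour arrays. The mice were 11 weeks old, ate chow freely, and lived in light until Zeitgeber time (ZT) 12. Knockout mice (IRLKO) carried loxP sites around the fourth exon of the insulin receptor gene Insr and a tamoxifen-inducible Cre recombinase under the transthyretin promoter, which is active in hepatocytes. Control mice (IRLWT) kept Insr. The labels do not give whether controls carried Cre, or when tamoxifen was given. Livers were taken at ZT8, ZT12 and ZT16, and each of the 6 groups of genotype and time had 6 mice. Each array is taken as 1 mouse. The tests use 1 estimate per gene of the spread between mice within groups, shared by all 6 groups. That spread was not equal between groups. For Mki67 at ZT8 the SD was 1.08 in knockouts and 0.45 in controls. The tissue is whole liver, in which fewer cells of a type and less RNA per cell cannot be told apart.

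Adult hepatocytes rest outside the cell cycle, and whole liver holds few dividing cells. Cells enter the cycle when D-type cyclins with CDK4 or CDK6 free the E2F factors from the retinoblastoma protein. E2F then switches on the genes of DNA synthesis, and FOXM1 and B-MYB later switch on the genes of mitosis. Before entry, many of the late genes are held off at a promoter element called the cell cycle genes homology region, often next to CCAAT boxes bound by NF-Y.

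These letters were looked for in the promoters of the 44 genes. RefSeq promoters of build GRCm38.p6 were matched by symbol for 34 of the 44 genes, in 36 entries. In the 250 bases before the start, CCAAT was found on either strand in 29 of the 36 entries, 80.6%, against 33.8% of all 32851 promoters. TTTGAA, the letters of the homology region, was found in 8 entries, 22.2%, against 16% of all. Both were present in 8 entries, 22.2%, against 5.55% of all, namely those of Ccnb2, Cdc20, Cdk1, Kif11, Mcm2, Mki67, Prc1 and Top2a. A pair of E2F letter strings were each found in 3 entries, 8.33%: TTTCCCGC in Cdc6, Cdk2 and Mcm7, against 0.895% of all, and TTTGGCGC in Cdc25a, Mcm5 and Mcm6, against 0.417% of all. Strings were searched on both strands and could overlap. A match is a run of letters only, and no binding was measured. Shown are 4 genes with CCAAT and TTTGAA whose signal was higher in knockouts, 5′ to 3′ on the gene's strand, with every match on either strand in capitals. Cdc20 lies on the minus strand at chr4:118437344-118437593, Mki67 on the minus strand at chr7:135716380-135716629, Top2a on the minus strand at chr11:99024190-99024439 and Mcm2 on the minus strand at chr6:88898781-88899030.
Cdc20: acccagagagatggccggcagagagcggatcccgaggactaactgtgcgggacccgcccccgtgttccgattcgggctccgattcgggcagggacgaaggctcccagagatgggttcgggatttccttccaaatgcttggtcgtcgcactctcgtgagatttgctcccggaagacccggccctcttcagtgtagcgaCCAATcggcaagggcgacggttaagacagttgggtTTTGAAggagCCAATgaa
Mki67: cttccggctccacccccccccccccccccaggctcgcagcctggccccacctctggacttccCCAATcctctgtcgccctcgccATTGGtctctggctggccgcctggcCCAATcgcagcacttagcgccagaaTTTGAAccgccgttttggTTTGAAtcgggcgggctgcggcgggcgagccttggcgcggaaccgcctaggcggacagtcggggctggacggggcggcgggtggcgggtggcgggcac
Top2a: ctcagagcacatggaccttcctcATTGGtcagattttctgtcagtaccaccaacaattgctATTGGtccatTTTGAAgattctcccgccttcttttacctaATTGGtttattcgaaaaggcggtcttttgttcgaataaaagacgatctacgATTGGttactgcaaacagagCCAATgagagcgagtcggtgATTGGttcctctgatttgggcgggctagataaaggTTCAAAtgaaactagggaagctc
Mcm2: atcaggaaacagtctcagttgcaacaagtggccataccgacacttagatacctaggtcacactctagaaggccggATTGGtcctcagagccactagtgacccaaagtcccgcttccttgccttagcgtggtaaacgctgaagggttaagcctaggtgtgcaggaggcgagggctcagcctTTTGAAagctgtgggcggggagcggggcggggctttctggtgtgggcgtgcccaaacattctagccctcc

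Top2a held 6 matches to CCAAT and 2 to TTTGAA, Mki67 held 3 and 2, Cdc20 held 2 and 1, and Mcm2 held 1 and 1. The sequences differ in that Mki67 carries its TTTGAA matches in the middle of the window, while the Cdc20 match lies within the last bases before the start.

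Values below are log2 signal minus the 75th percentile of the array, so 0 is that percentile, and levels are compared between groups for 1 probe, never between genes. Over the arrays, 53.7% to 63.1% of probes were well above background, and no spot was saturated. Insr was lower in every knockout than in every control of the same time, by a log2 difference of -1.77 ± 0.08 (SE) over the 3 times (adjusted p = 2.35e-18). Where its probe lies relative to the deleted exon was not determined.

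The number of cell cycle genes above background differed little between most mice. In controls, 32 to 36 of the 44 were well above background at ZT8, 33 to 36 at ZT12 and 29 to 34 at ZT16, with medians of 32, 34 and 32.5. In knockouts the ranges were 33 to 43, 33 to 42 and 32 to 42, with medians of 34, 36 and 35.5. The upper ends of the knockout ranges came from 4 arrays: ZT8 replicate 3 with 43 genes, ZT12 replicate 1 with 42, ZT12 replicate 6 with 41 and ZT16 replicate 6 with 42. No other array of either genotype passed 37.

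Those 4 arrays stood apart in level as well. ZT8 knockout replicate 3 was the highest of its 6 mice in 33 of the 37 tested genes, against 21.7% of all genes tested, with a median excess of 2.14 over the median of the other 5 mice. ZT16 replicate 6 was the highest in 28 genes, against 25.1% of all genes, with a median excess of 1.18. ZT12 replicates 6 and 1 were the highest in 20 and 11 genes, against 20.0% and 19.4% of all genes, with median excesses of 0.84 and 0.90. A control on the slide of 3 of these arrays, ZT12 replicate 1, was the highest of its group in 16 genes, against 16.2% of all genes, with a median excess of 0.36. The other control there, ZT8 replicate 5, was the highest in 3 genes, against 16.4% of all genes, with a median excess of -0.06. A control on slide 6, ZT12 replicate 5, was the highest in 10 genes, against 15.5%, with a median excess of 0.41. The 4 arrays also lay at 1 end of the knockouts on the first principal component of all genes, with 33.5% of the variance. There ZT8 replicate 3 scored -68.3, and ZT16 replicate 6 and ZT12 replicate 1 both -59.6. ZT12 replicate 6 scored -49.6, and all other knockouts scored from -46.7 to -25.8. On the second component ZT8 replicate 3 scored 3.03, where the other 5 ZT8 knockouts scored 29.1 or more. The ZT12 knockouts scored from -14.3 to 4.35 there. Of the 4 arrays, 3 were on slide 3, which held 5 arrays. The other 2 on that slide were controls, and the part of the slide in the result was not tested. Results are therefore given with all arrays and, where they move, without these 4, a set chosen after the values were seen. Because the set was picked for high values, leaving it out lowers the knockout means by construction. It also narrows the spread between mice by construction. For Plk1 the SE over the 3 times went from 0.18 to 0.10. The p-values without these arrays, or without ZT8 knockout replicate 3, are therefore given as a description and not as support.

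**Figure D1:**
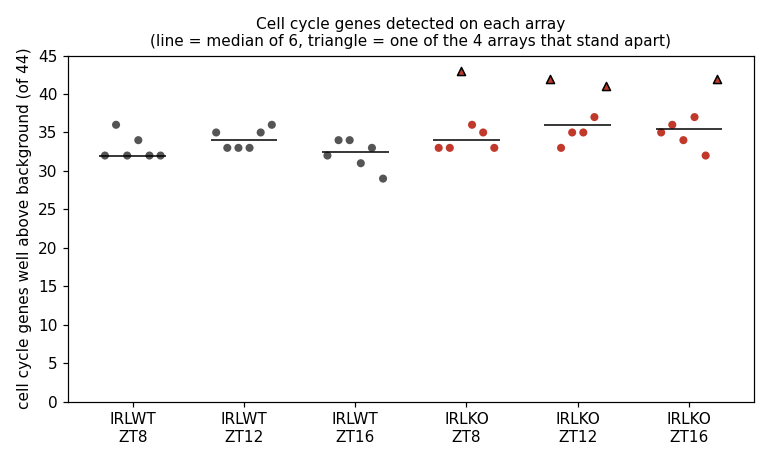
Number of the 44 cell cycle genes well above background on each array, by group, in replicate order, with the group median as a line. The 4 knockout arrays marked by triangles reach 41 to 43 genes, and all others lie between 29 and 37.

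**Figure D2:**
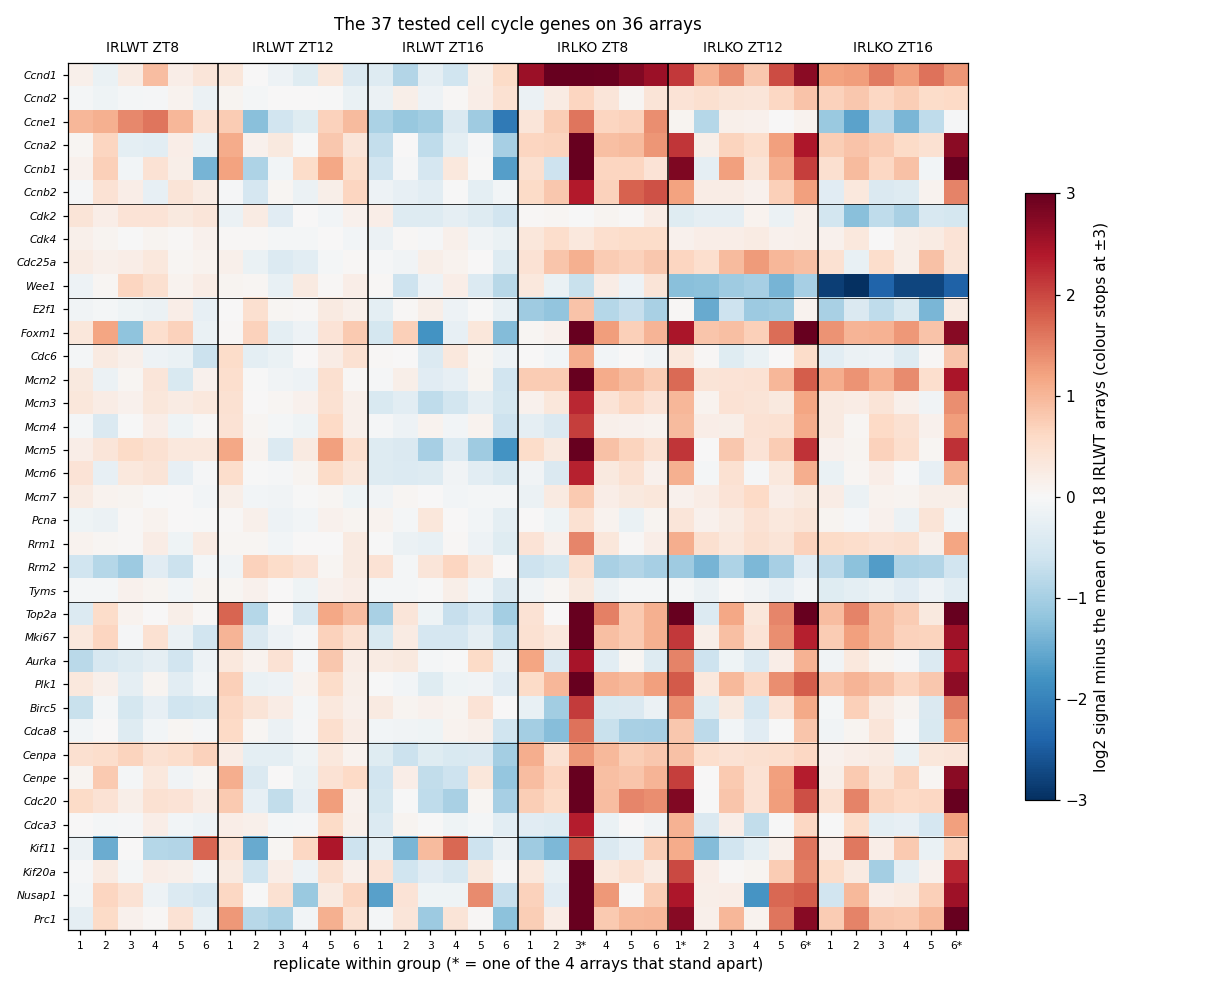
Log2 signal of the 37 tested genes (rows, by role) on the 36 arrays (columns), minus the mean of the 18 control arrays. The 4 starred knockout arrays are red through most replication and mitosis rows, Ccnd1 is red on all 18 knockouts, and Wee1 and Rrm2 are blue in ZT12 and ZT16 knockouts.

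More of the cell cycle genes were higher in knockouts than lower, at each time. Adjusted p-values are from limma over all genes tested, with 0.05 as the threshold for a call. Averaged over the 3 times, 28 of the 37 genes were called, against 60.0% of all genes tested. Of these, 23 were higher, against 30.0% of all genes, and 5 were lower, against 30.1%. At ZT8, 11 were called, all higher, against 35.5% of all genes called and 16.7% called higher. At ZT12, 16 were called, against 42.3% of all genes. They were 13 higher genes, against 19.6%, and 3 lower genes, against 22.7%. At ZT16, 20 were called, against 40.0% of all genes. They were 17 higher, against 20.0%, and 3 lower, against 20.1%.

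At ZT8, 8 of the 37 genes had groups that did not overlap, against 15.5% of all genes. ZT12 also gave 8, against 21.4%, and ZT16 gave 15, against 19.2%. The 37 genes had a median log2 difference of 0.39, 0.54 and 0.52 in time order, where the median of all genes lay at 0.01, -0.02 and 0.00. Without ZT8 knockout replicate 3 the ZT8 median was 0.18, and 13 of the 37 differences were below 0, against 7 with it. Without all 4 arrays the medians were 0.18, 0.22 and 0.42. Of the 28 genes called over the 3 times, 20 were among the 27 that were well above background on all arrays. The other 8 were dim on some arrays, and a gene that passes the detection rule through 1 genotype alone is bound to differ, so the counts over the tested genes are given as a description. Foxm1, well above background on 13 knockouts and 3 controls, and Nusap1, on 8 knockouts and 4 controls, are counted among the higher genes but passed the rule only with the knockouts included, and their differences are not used as support.

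**Figure D3:**
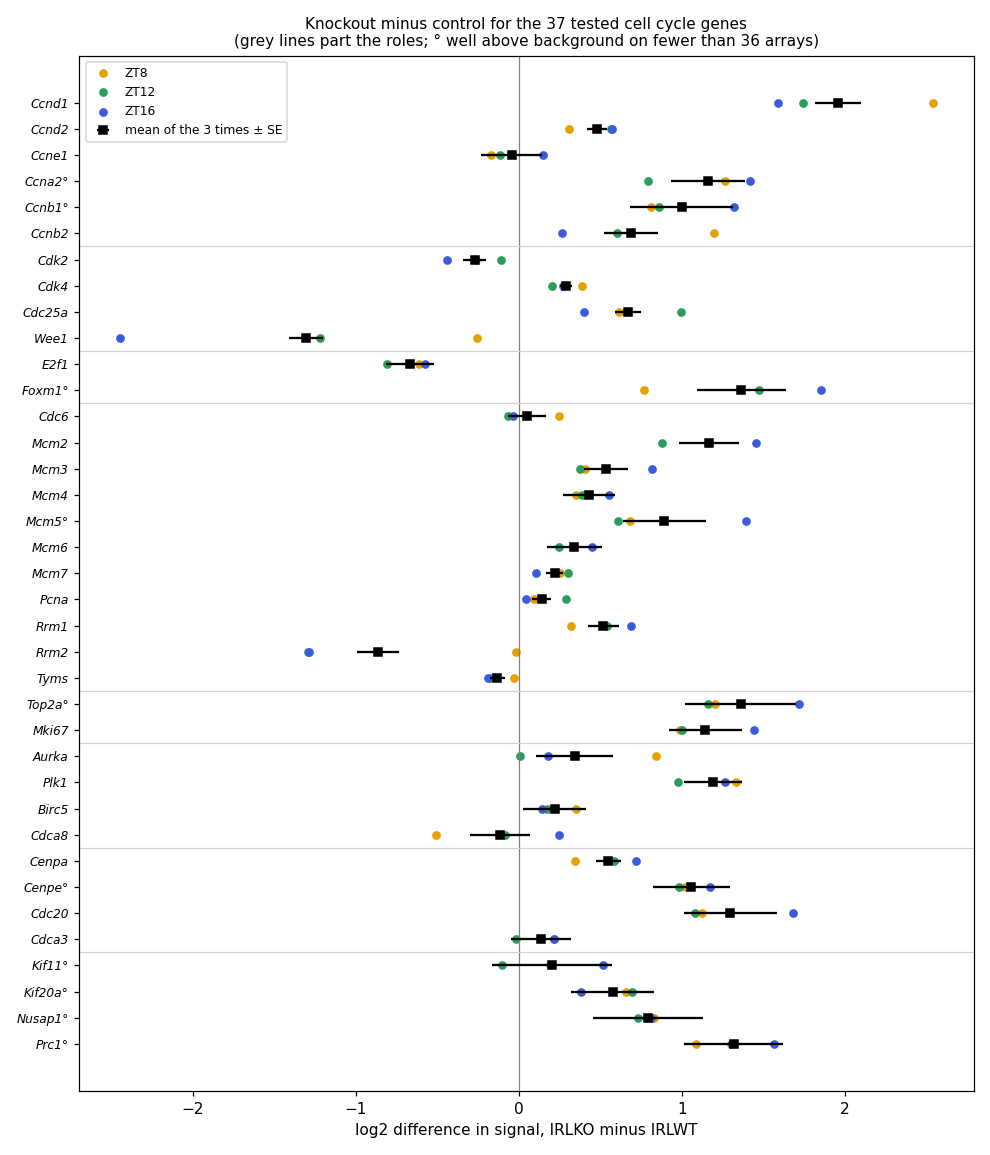
Log2 difference in signal, knockout minus control, for each tested gene at ZT8, ZT12 and ZT16 (dots) and averaged over the 3 times with its standard error (squares), ordered by role. Ccnd1 lies farthest to the right, and Wee1 moves from -0.26 at ZT8 to -2.44 at ZT16.

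The D-type cyclins, which start the cycle, were higher in knockouts. The probe of Ccnd1 lies at chr7:152116202-152116261 (build mm9). At ZT8 Ccnd1 ran from 1.79 through a median of 2.22 to 2.91 in controls and from 4.56 through 4.87 to 5.16 in knockouts. Its ZT12 values ran from 1.56 through 1.93 to 2.35 in controls and from 2.80 through 3.69 to 4.71 in knockouts. At ZT16 it ran from 1.11 through 1.67 to 2.58 in controls and from 3.21 through 3.29 to 3.62 in knockouts. All 6 knockouts lay above all 6 controls at each time. The difference was 2.54 ± 0.25 (SE) in the ZT8 mice (adjusted p = 2.42e-09), 1.74 ± 0.25 in those of ZT12 and 1.59 ± 0.25 in those of ZT16. Averaged over time, Ccnd1 was 3.88-fold higher (adjusted p = 6.53e-13). It fell with time in knockouts, by 1.45 ± 0.25 from ZT8 to ZT16 (F test, adjusted p = 8.30e-05). In controls it changed by -0.50 ± 0.25, and time was not called there (F test, adjusted p = 0.297). The difference between these time courses was not called (F test, adjusted p = 0.157).

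Ccnd2, at chr6:127080268-127080327 (mm9), showed a smaller difference. Its ZT16 values ran from 1.94 through 2.21 to 2.57 in controls and from 2.66 through 2.76 to 2.91 in knockouts. The knockouts lay above the controls at ZT12 and ZT16 and overlapped them at ZT8. Averaged over time, Ccnd2 was 1.39-fold higher, a log2 difference of 0.48 ± 0.06 (SE, adjusted p = 5.60e-08). At ZT8 the difference was 0.31 ± 0.11 (adjusted p = 0.0231), and without knockout replicate 3 it was 0.23 (adjusted p = 0.0848).

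Ccne1, the E-type cyclin that drives entry into DNA synthesis with CDK2, fell with time in both genotypes and was not called for genotype. Its median in controls went from -0.21 at ZT8 to -1.07 at ZT12 and -2.29 at ZT16, and in knockouts from -0.52 to -1.15 and -2.18. It fell by 2.19 ± 0.33 (SE) from ZT8 to ZT16 in controls and by 1.86 ± 0.33 in knockouts (F tests, adjusted p = 2.88e-05 and 2.05e-04). Its difference between genotypes was -0.05 ± 0.19 over the 3 times (adjusted p = 0.853). Ccne2, the other E-type cyclin, was well above background on 1 knockout and 1 control array and was not tested.

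The cyclins of DNA synthesis and mitosis were also higher. Ccna2, cyclin A2, is read at chr3:36463978-36464037 (mm9). At ZT8 Ccna2 ran from -4.19 through -3.93 to -3.24 in controls and from -3.23 through -2.95 to -0.40 in knockouts. At ZT16 it ran from -4.88 through -4.37 to -3.87 in controls and from -3.43 through -3.12 to -1.17 in knockouts. The groups did not overlap at these times and did at ZT12. Ccna2 over all 3 times was 2.23-fold higher, a log2 difference of 1.16 ± 0.23 (SE, adjusted p = 5.47e-05), and 0.75 (adjusted p = 1.83e-05) without the 4 arrays.

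Ccnb1 and Ccnb2 encode the B-type cyclins that drive mitosis with CDK1. Ccnb2 was called at ZT8, by 1.19 ± 0.29 (SE, adjusted p = 0.00171), where the groups did not overlap, but not at ZT12 (0.60 ± 0.29) or ZT16 (0.27 ± 0.29). Ccnb2 fell by 1.23 ± 0.29 from ZT8 to ZT16 in knockouts (F test, adjusted p = 0.00476). Ccnb1 was dimmer, well above background on 19 arrays. Of these, 13 were knockouts and 6 controls. Its fitted difference over the 3 times was 1.00 ± 0.32 (adjusted p = 0.00729), and 0.51 (adjusted p = 0.0666) without the 4 arrays. That value is partly set against controls not above background, 2 of the 6 being above it at ZT8 and none at ZT16. At ZT16 no control and 5 of the 6 knockouts had Ccnb1 well above background, and it was at least 1.94-fold higher there. That bound sets the knockout mean against the lowest signal well above background on each control array.

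The cyclin-dependent kinases and the enzymes that set their phosphorylation moved in opposite directions. Cdk4, the partner of the D-type cyclins, is read at chr10:126504279-126504338 (mm9). At ZT8 Cdk4 ran from 3.35 through 3.45 to 3.51 in controls and from 3.68 through 3.89 to 3.93 in knockouts. The groups did not overlap at ZT8 or ZT12. With the 3 times averaged, Cdk4 was 1.22-fold higher, a log2 difference of 0.29 ± 0.04 (SE, adjusted p = 6.50e-08), and it was called at each time. Cdk2, the partner of the E-type and A-type cyclins, was lower by a log2 difference of -0.27 ± 0.07 over the 3 times (adjusted p = 0.00126). At single times Cdk2 was called at ZT16 only (-0.44 ± 0.12, adjusted p = 0.00417). It also fell between ZT8 and ZT16, by 0.65 in controls and by 0.84 in knockouts. Cdk1, the kinase of mitosis, was well above background on the 4 knockout arrays named above and on no other, and was not tested.

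Cdc25a encodes the phosphatase that removes the inhibitory phosphates from these kinases. Its probe lies at chr9:109796280-109796339 (mm9). At ZT8 Cdc25a ran from 0.38 through 0.50 to 0.63 in controls and from 0.75 through 1.11 to 1.40 in knockouts. Its ZT12 values ran from -0.10 through 0.19 to 0.46 in controls and from 0.82 through 1.25 to 1.60 in knockouts. In the ZT16 mice it ran from -0.07 through 0.31 to 0.50 in controls and from 0.11 through 0.75 to 1.20 in knockouts. Knockouts lay above controls at ZT8 and ZT12, and the groups overlapped at ZT16. The differences were 0.61 ± 0.14 (SE), 1.00 ± 0.14 and 0.40 ± 0.14, and over the 3 times Cdc25a was 1.59-fold higher (adjusted p = 2.04e-08).

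Wee1 encodes the kinase that adds those inhibitory phosphates to CDK1, and it is a known target of the circadian clock in liver. Its probe lies at chr7:117286573-117286632 (mm9). At ZT8 Wee1 ran from -0.18 through 0.12 to 0.61 in controls and from -0.72 through 0.00 to 0.36 in knockouts. In the ZT12 mice it ran from -0.26 through 0.03 to 0.23 in controls and from -1.43 through -1.19 to -1.03 in knockouts. At ZT16 it ran from -0.88 through -0.32 to 0.17 in controls and from -3.48 through -2.80 to -2.43 in knockouts. The groups overlapped at ZT8, and every knockout lay below every control at ZT12 and ZT16. The ZT8 difference, -0.26 ± 0.18 (SE), was not called (adjusted p = 0.294). By ZT12 the difference was -1.22 ± 0.18 (adjusted p = 3.47e-06), and by ZT16 it had reached -2.44 ± 0.18 (adjusted p = 7.73e-12). At ZT16 Wee1 was thus 5.44-fold lower in knockouts.

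Wee1 was 1 of 2 cell cycle genes whose genotype effect differed between times, with Rrm2, against 8.46% of all genes tested. The F test gave an adjusted p of 8.82e-06 for Wee1. Its effect at ZT16 was 2.19 ± 0.26 (SE) further down than at ZT8. In knockouts Wee1 fell by 1.11 ± 0.19 to ZT12 and by 2.73 ± 0.18 to ZT16 (F test, adjusted p = 1.14e-11). In controls it changed by -0.15 ± 0.18 and -0.55 ± 0.18, and time was not called (F test, adjusted p = 0.0625). Leaving out the 4 arrays gave a difference of -1.30 over the 3 times, against -1.31 ± 0.11 with them.

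**Figure D4:**
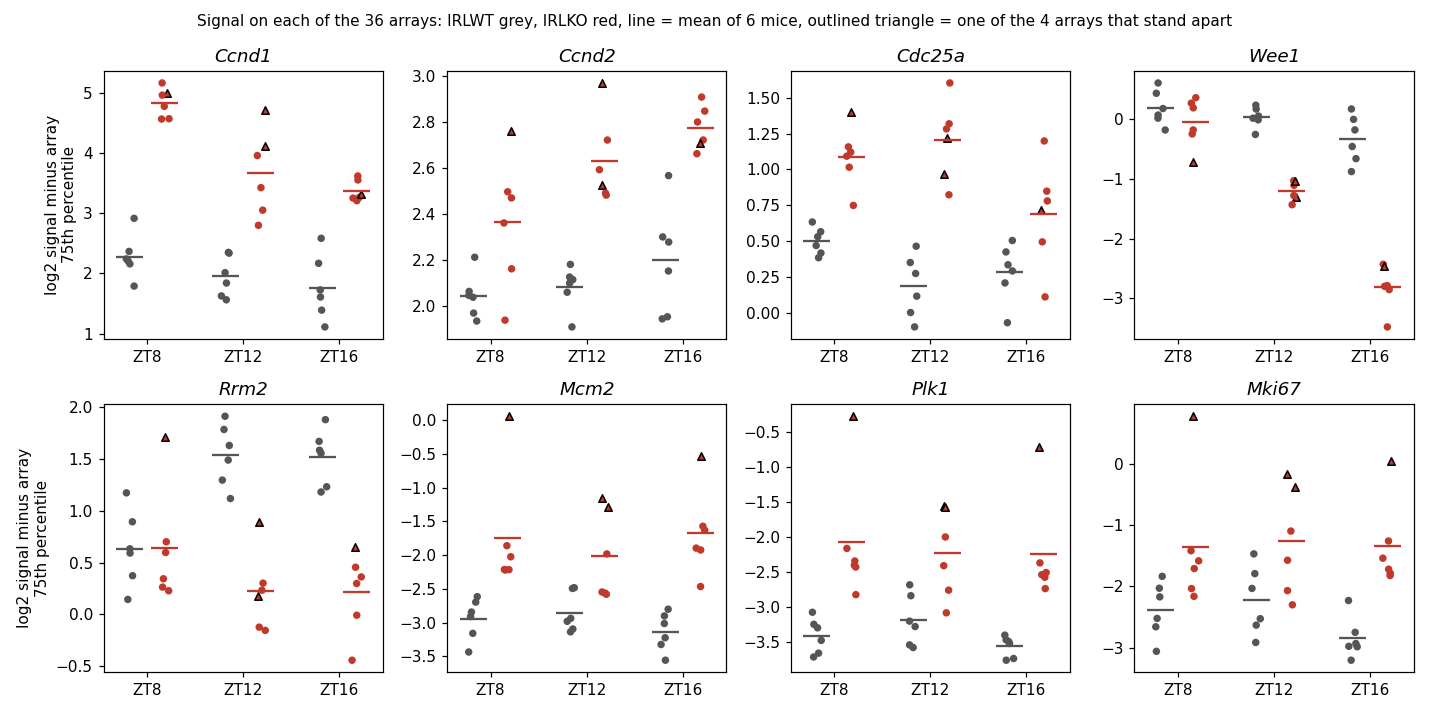
Log2 signal minus the array's 75th percentile for 8 genes on each of the 36 arrays, controls in grey and knockouts in red, with the mean of 6 mice as a line and the 4 arrays that stand apart as outlined triangles. For Ccnd1 all knockouts lie above all controls at each time, and for Plk1, Mcm2 and Mki67 the triangles lie above the other knockouts.

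Of the factors that switch on cell cycle genes, E2f1 was lower, and Foxm1 was too dim in controls for an exact difference. E2f1 activates genes of DNA synthesis. It was 1.59-fold lower over the 3 times, a log2 difference of -0.67 ± 0.15 (SE, adjusted p = 2.46e-04), with overlap at each time. The overlap came from the 4 arrays. In their absence no knockout reached the lowest control of its time, and the difference was -0.92 (adjusted p = 5.51e-10). Leaving out the highest knockouts of a gene that is lower in knockouts widens the gap by construction. Neither the gap nor its p is used as support. At ZT8 E2f1 ran from -1.72 to -1.27 in controls and had a median of -2.39 in knockouts, with knockout replicate 3 at the top of the knockout range, at -0.61. In a fit without that mouse, the ZT8 difference went from -0.61 (adjusted p = 0.0597) to -0.91 (adjusted p = 0.00102), a widening built in the same way. Foxm1 activates genes of mitosis and was well above background on 13 knockouts but 3 controls. Its fitted log2 difference of 1.36 over the 3 times, 0.97 without the 4 arrays, is set mostly against controls at background and is given without a test. At ZT16, where 4 knockouts and no control had Foxm1 well above background, it was at least 1.74-fold higher by the same bound.

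The minichromosome maintenance genes Mcm2 to Mcm7 encode the helicase that licenses and opens replication origins. Over the 3 times 5 of the 6 were called, all higher, and Mcm6 missed the threshold at 0.34 ± 0.17 (SE, adjusted p = 0.0799). Mcm2, at chr6:88833619-88833678 (mm9), differed most. At ZT8 Mcm2 ran from -3.44 through -2.88 to -2.62 in controls and from -2.22 through -2.12 to 0.058 in knockouts. Its ZT12 values ran from -3.14 through -2.96 to -2.48 in controls and from -2.58 through -2.27 to -1.16 in knockouts. At ZT16 it ran from -3.56 through -3.12 to -2.80 in controls and from -2.47 through -1.76 to -0.53 in knockouts. The groups overlapped at ZT12 only. Over the 3 times Mcm2 was 2.24-fold higher, a log2 difference of 1.16 ± 0.18 (adjusted p = 2.53e-06), and 0.84 (adjusted p = 2.66e-08) without the 4 arrays.

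Mcm5 was higher by 0.89 ± 0.25 (SE), Mcm3 by 0.53 ± 0.13, Mcm4 by 0.43 ± 0.16 and Mcm7 by 0.22 ± 0.05. Mcm3 and Mcm5 were called at ZT16, where their groups did not overlap. In controls both fell from ZT8 to ZT16, Mcm3 by 0.70 and Mcm5 by 1.15 (F tests, adjusted p = 0.0399 and 0.0498). Without the 4 arrays, Mcm3 stayed called at 0.30 and Mcm5 at 0.46, and Mcm4 was no longer called at 0.17 (adjusted p = 0.0739). Cdc6, which loads the helicase, differed by 0.05 ± 0.12 (adjusted p = 0.745). Pcna, the sliding clamp of the polymerases, was higher by 0.14 ± 0.06 (adjusted p = 0.0413), and by 0.10 (adjusted p = 0.133) without the 4 arrays.

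The genes of nucleotide supply split. Rrm1 and Rrm2 encode the large and small subunits of ribonucleotide reductase, which makes deoxyribonucleotides. Rrm1, at chr7:109617223-109617283 (mm9), ran from -0.88 through -0.67 to -0.49 in ZT16 controls and from -0.36 through -0.02 to 0.68 in ZT16 knockouts. It did not overlap at ZT12 or ZT16 and was 1.43-fold higher over the 3 times, a log2 difference of 0.52 ± 0.10 (SE, adjusted p = 2.76e-05).

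Rrm2 went the other way. Its probe lies at chr12:25398824-25398883 (mm9). At ZT8 Rrm2 ran from 0.14 through 0.61 to 1.17 in controls and from 0.23 through 0.47 to 1.71 in knockouts. Its ZT12 values ran from 1.12 through 1.56 to 1.91 in controls and from -0.15 through 0.20 to 0.89 in knockouts. In the ZT16 mice it ran from 1.18 through 1.57 to 1.88 in controls and from -0.44 through 0.33 to 0.65 in knockouts. The groups overlapped at ZT8 and were apart at ZT12 and ZT16, with every knockout below every control. The ZT8 difference was -0.02 ± 0.22 (SE, adjusted p = 0.959). By ZT12 Rrm2 was lower by a difference of -1.29 ± 0.22 (adjusted p = 2.60e-05), and the ZT16 difference was -1.28 ± 0.22 (adjusted p = 3.11e-05). The genotype effect differed between times (F test, adjusted p = 0.00906). In controls Rrm2 rose by 0.90 ± 0.22 from ZT8 to ZT12 and lay 0.87 ± 0.22 above ZT8 at ZT16 (F test, adjusted p = 0.00276). In knockouts it changed by -0.37 ± 0.23 and -0.40 ± 0.22 (F test, adjusted p = 0.315). Without ZT8 knockout replicate 3, the change from ZT8 to ZT16 in knockouts was -0.15. The F test over the 3 times in knockouts then gave an adjusted p of 0.818. The ZT8 genotype difference was -0.26 (adjusted p = 0.309), and the effect still differed between times (F test, adjusted p = 0.0120).

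Tyms encodes thymidylate synthase, which makes the thymidine nucleotide. It was lower by a log2 difference of -0.13 ± 0.05 (SE) over the 3 times (adjusted p = 0.0164). Its 3 probes did not share a direction, however, and with the mean over all its probes the sign turned. Of the 11 tested genes with more than 1 usable probe, Tyms was the only one whose probes were called in opposite directions.

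Top2a, the topoisomerase that untangles replicated DNA, and Mki67, the common stain for dividing cells, were both higher. Mki67 is read at chr7:142881591-142881650 (mm9). At ZT8 Mki67 ran from -3.06 through -2.35 to -1.84 in controls and from -2.17 through -1.65 to 0.77 in knockouts. In the ZT12 mice it ran from -2.92 through -2.28 to -1.47 in controls and from -2.30 through -1.34 to -0.17 in knockouts. At ZT16 it ran from -3.21 through -2.96 to -2.23 in controls and from -1.83 through -1.63 to 0.049 in knockouts. The groups overlapped at ZT8 and ZT12 and were apart at ZT16. Averaged over time, Mki67 was 2.21-fold higher, a log2 difference of 1.14 ± 0.22 (SE, adjusted p = 5.86e-05), and 0.77 (adjusted p = 8.69e-05) without the 4 arrays. The ZT8 difference of 0.99 ± 0.39 (adjusted p = 0.0474) became 0.57 (adjusted p = 0.200) without knockout replicate 3. Top2a was well above background on 24 arrays, 16 knockouts and 8 controls. Its fitted difference was 1.36 ± 0.34 (adjusted p = 9.71e-04), and 0.78 (adjusted p = 0.00561) without the 4 arrays. That value is partly set against controls not above background, 2 of the 6 being above it at ZT8, 4 at ZT12 and 2 at ZT16.

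Among the mitotic kinases and the chromosomal passenger complex, Plk1 alone of the 4 tested genes was called. PLK1 drives entry into and passage through mitosis, and its probe lies at chr7:129313220-129313279 (mm9). At ZT8 Plk1 ran from -3.72 through -3.39 to -3.08 in controls and from -2.83 through -2.38 to -0.27 in knockouts. Its ZT12 values ran from -3.59 through -3.25 to -2.69 in controls and from -3.09 through -2.21 to -1.55 in knockouts. At ZT16 it ran from -3.77 through -3.51 to -3.41 in controls and from -2.74 through -2.53 to -0.71 in knockouts. The groups overlapped at ZT12 only. Plk1 over all 3 times was 2.28-fold higher, a log2 difference of 1.19 ± 0.18 (SE, adjusted p = 1.27e-06), and it was called at each time. Without the 4 arrays the difference was 0.88 (adjusted p = 3.49e-08).

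Aurka, the kinase that matures the spindle poles, had a difference of 0.34 ± 0.24 (SE, adjusted p = 0.216). Birc5 (survivin) and Cdca8 (borealin) belong to the passenger complex that corrects attachments of chromosomes to the spindle. Birc5 had 0.22 ± 0.19 (adjusted p = 0.333) and Cdca8 -0.12 ± 0.18 (adjusted p = 0.607). At ZT8 Cdca8 had a median of -2.18 in controls and -3.11 in knockouts, and knockout replicate 3 reached -0.48. Without that mouse Cdca8 was lower at ZT8, by a log2 difference of -0.94 (adjusted p = 0.00178). It was the highest of the ZT8 knockouts, so leaving it out lowers their mean by construction, and this call is not used as support. Aurkb, the kinase of the complex, was well above background on the 4 knockout arrays and on no other.

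At the centromere and the spindle checkpoint, 3 of the 4 tested genes were higher. Cenpa, the histone that marks the centromere, is read at chr5:30974916-30975386 (mm9), a span that the files give and that is longer than the other probes here. At ZT12 Cenpa ran from -2.50 through -2.22 to -1.90 in controls and from -1.77 through -1.70 to -1.32 in knockouts. Its ZT16 values ran from -3.22 through -2.64 to -2.56 in controls and from -2.41 through -1.98 to -1.83 in knockouts. The groups did not overlap at these times. With the 3 times averaged, Cenpa was 1.46-fold higher, a log2 difference of 0.55 ± 0.08 (SE, adjusted p = 3.59e-07), and 0.47 without the 4 arrays. Cenpa fell with time in controls and in knockouts, by 0.72 from ZT8 to ZT16 in the latter (F tests, adjusted p = 1.01e-06 and 3.47e-04).

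Cdc20 activates the ubiquitin ligase that ends mitosis. It was higher by 1.29 ± 0.29 (SE, adjusted p = 2.53e-04), and by 0.81 (adjusted p = 2.49e-04) without the 4 arrays. Cenpe, a motor that moves chromosomes at the kinetochore, was higher by 1.06 ± 0.24 (adjusted p = 3.04e-04), and by 0.66 (adjusted p = 5.64e-04) without them. Cdca3 had 0.14 ± 0.19 (adjusted p = 0.545). The checkpoint kinases Bub1 and Ttk were well above background on 3 knockouts and Bub1b on 3 knockouts, all among the 4 arrays, and on no control.

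Of the spindle motors and microtubule proteins, Prc1 was called through 1 of its probes. Prc1, which bundles the microtubules between the separating chromosomes, was higher by 1.32 ± 0.30 (SE, adjusted p = 3.88e-04), and by 0.83 (adjusted p = 0.00197) without the 4 arrays. The other usable probe of Prc1, well above background on 35 arrays against 33, gave 0.22 ± 0.11 and was not called (adjusted p = 0.0875 in the fit over all probes). Nusap1, a spindle microtubule protein, was well above background on 8 knockouts and 4 controls. Its fitted difference was 0.79, and 0.32 without the 4 arrays, and neither is given as a test. Kif20a, a motor of cytokinesis, had 0.58 ± 0.25 (adjusted p = 0.0508). Kif11, the motor that separates the spindle poles, was well above background on 9 arrays and had 0.20 ± 0.37 (adjusted p = 0.659). Tpx2, a spindle assembly factor, was above background on the 4 knockout arrays and no other.

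Detection set which genes could be tested. The gene just inside the limit of 6 arrays was Kif11 with 9 arrays, followed by Nusap1 with 12. Just outside lay Cdk1, Aurkb and Tpx2 with 4 arrays each, then Bub1, Bub1b and Ttk with 3, and Ccne2 with 2.

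Time within a genotype was tested separately. In controls 6 of the 37 passed the F test over time, against 25.1% of all genes: Ccne1, Cdk2, Mcm3, Mcm5, Rrm2 and Cenpa. In knockouts 10 passed, against 30.1% of all: Ccnd1, Ccnd2, Ccne1, Ccnb2, Cdk2, Cdk4, Cdc25a, Wee1, Tyms and Cenpa. Ccne1, Cdk2 and Cenpa passed in both. Without ZT8 knockout replicate 3 the count in knockouts was 14. Without the 4 arrays the counts were 13 in controls and 12 in knockouts, and 6 genes passed the F test of a genotype effect that differs between times: Ccnd1, Wee1, Mcm3, Rrm1, Rrm2 and Cdca8. No control was left out, but the spread shared by all groups then no longer held those 4 knockouts. Shares of all genes are not given for the F tests in these smaller fits. Whether these changes in count are particular to the cell cycle genes cannot be told.

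Without ZT8 knockout replicate 3, the ZT8 calls were 8 genes, of which 6 were higher, against 18.3% of all genes in that fit, and 2 were lower, against 17.8%. The higher genes were Ccnd1, Ccnb2, Cdk4, Cdc25a, Mcm2 and Plk1, and the lower ones E2f1 and Cdca8. In both lower genes the mouse left out was the highest knockout, which favours those calls. Ccnd2, Ccna2, Mcm7, Mki67 and Cenpa were no longer called at ZT8. The share of genes called higher at ZT8 was then near that of all genes. Over the 3 times, 21 were higher without this mouse, against 30.7% of all genes, and 5 lower, against 29.9%.

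Without all 4 arrays, 25 genes were called over the 3 times, 24 of them also called with all arrays and in the same direction. Of the 25, 19 were higher, against 30.8% of all genes, and 6 lower, against 28.9%. Ccnb1, Mcm4, Pcna and Nusap1 were no longer called, and Cdca8 was called as lower (-0.42, adjusted p = 3.35e-04). Cdca8 was high on the 4 arrays, so leaving them out favours that call. Cdc6, Aurka, Birc5, Cdca3 and Kif11, called in neither fit, went from above 0 to -0.12, -0.08, -0.11, -0.18 and -0.20. Kif20a and Mcm6, also called in neither, shrank to 0.11 and 0.06. Ccnb2 and Rrm1 stayed called, at 0.43 and 0.36. Within the 3 wash batches taken separately, 27 of the 28 genes called over the 3 times kept their sign in each batch, and Tyms did not.

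**Figure D5:**
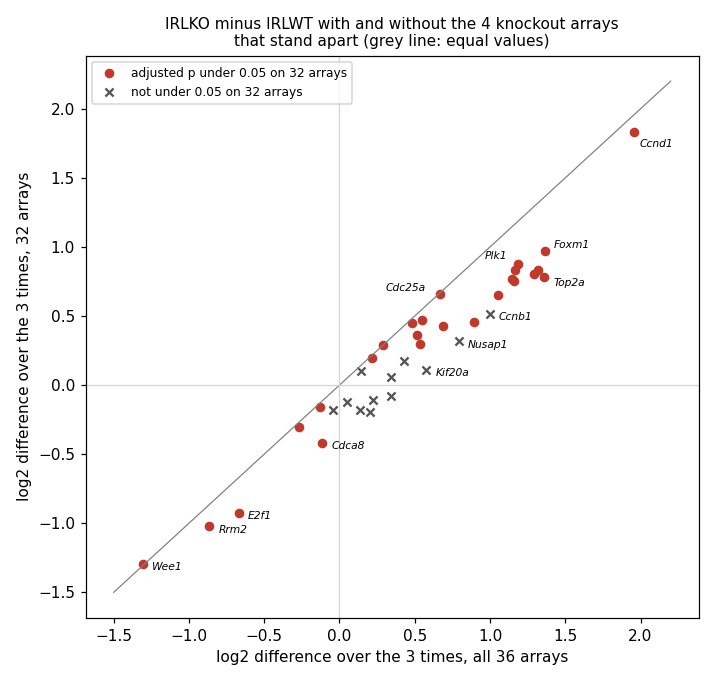
Log2 difference over the 3 times for the 37 genes, with all 36 arrays (x axis) against 32 arrays without the 4 knockouts that stand apart (y axis). Wee1 and Cdc25a lie on or near the line of equal values, and Foxm1, Plk1 and Top2a lie below it.

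How the genes moved together from mouse to mouse was measured after removing group and wash batch means. Deviations of Mki67 were set against those of the other 36 tested genes and 9 marker lists over all 36 mice, 45 relations in all. All values share the array and its scaling. Pearson's r was above 0.8 for 18 genes, and for 11 after leaving out the 2 mice farthest from the median in Mki67, which were ZT8 knockout replicate 3 and ZT12 knockout replicate 6. Deviations were not recomputed without these 2, so the group means removed still held them, which can raise r among the mice left. ZT12 knockout replicate 1 and ZT16 knockout replicate 6 stayed in. Values without the 2 mice therefore do not show a relation free of the arrays that stand apart. Cenpe had r = 0.94 (Spearman's rho = 0.93), and r = 0.92 without the 2 mice. Top2a had r = 0.93 (rho = 0.90), and 0.90 without them. Plk1 likewise had r = 0.93 (rho = 0.90), and 0.90 without them. For all 3 the permutation p was 1e-05, the smallest that 100000 permutations can give, and adjusted over the 45 relations it was 1.96e-05 for r and 2.37e-05 for rho.

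Ccnd1, Wee1 and Rrm2 showed weaker relations with Mki67. Ccnd1 had r = 0.27 (permutation p = 0.117, adjusted p = 0.129; rho = 0.23, permutation p = 0.181, adjusted p = 0.227) and r = 0.15 without the 2 mice. Wee1 had r = -0.17 (permutation p = 0.312, adjusted p = 0.327; rho = -0.08, permutation p = 0.657, adjusted p = 0.687) and r = -0.01 without them. Rrm2 had r = 0.37 (permutation p = 0.0273, adjusted p = 0.0351; rho = 0.08, permutation p = 0.631, adjusted p = 0.676) and r = 0.00 without them, so its relation rests on those 2 mice. After leaving them out, 25 genes had r above 0.5 and 11 had r below 0.3.

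The wider cell cycle was covered by 131 further genes in 7 lists, of which 120 were tested and 81 were called over the 3 times, 50 higher and 31 lower. These counts, and those of the single lists that follow, stand beside 60.0% of all genes called, 30.0% higher and 30.1% lower. Several lists lie near or below those shares. Of 10 CDK inhibitors and pocket proteins, 5 were higher and 2 lower. Cdkn1a, the inhibitor p21, was lower in knockouts at ZT16 by a log2 difference of -2.31 ± 0.51 (SE, adjusted p = 5.59e-04). It rose by 5.34 from ZT8 to ZT16 in controls and by 2.63 in knockouts, and its genotype effect differed between times (F test, adjusted p = 0.0407). Cdkn1c, the inhibitor p57, was higher by 0.71 ± 0.09, and Rbl2, the pocket protein p130, by 0.44 ± 0.06.

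Of 14 E2F, MuvB and B-Myb factors, 3 were higher and 4 lower. Tfdp2, a partner of E2F, was higher by 0.17 ± 0.05 (SE), and Lin52, a MuvB subunit, was lower by a difference of -0.26 ± 0.05. Lin9, another MuvB subunit, showed no called genotype effect (adjusted p = 0.997) and fell from ZT8 to ZT16 by 1.29 in controls and by 1.28 in knockouts. Of 11 other cyclins, CDKs and regulators, 2 were higher and 5 lower. Ccnd3, the third D-type cyclin, was higher by 0.56 ± 0.06 (adjusted p = 1.04e-09), so all 3 D-type cyclins were higher in knockouts. Ccnh, the cyclin of the CDK-activating kinase, was lower at -0.24 ± 0.03. Cdk6 had 0.08 ± 0.06 and fell with time in both genotypes, by 0.82 and 0.99.

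Of 24 other replication genes, 7 were higher and 8 lower. Tk1, which salvages thymidine, was lower at ZT16 by a difference of -1.31 ± 0.10 (SE, adjusted p = 1.12e-11) and not called at ZT8 (-0.14 ± 0.10), with a genotype effect that differed between times (F test, adjusted p = 8.82e-06). As for Rrm2, its level rose from ZT8 to ZT16 in controls, by 0.86. Cdt1, which loads the helicase with CDC6, was higher by 0.97 ± 0.09, and Orc5, of the origin recognition complex, was lower at -0.64 ± 0.07. Of 35 other mitosis genes, 16 were higher and 8 lower. Spc24 and Spc25, subunits of the NDC80 complex at the kinetochore, were lower at -1.42 ± 0.11 and -1.13 ± 0.17, opposite to Cenpa and Cenpe. Pttg1, securin, was lower at -0.32 ± 0.05.

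Of 15 p53 targets and checkpoint genes, 10 were higher and 2 lower. Gadd45b, a stress gene also known from regenerating liver, was higher by 2.52 ± 0.18 (SE, adjusted p = 3.76e-13), Brca1, of DNA repair, by 1.29 ± 0.10, and Gadd45a was lower at -1.37 ± 0.14. Of 11 growth signals and immediate early genes, 7 were higher and 2 lower. Hbegf, a ligand of the EGF receptor, was higher by 1.41 ± 0.10, and Hgf, hepatocyte growth factor, by 0.76 ± 0.07. Igf1, a growth hormone target made by hepatocytes, was lower at -0.52 ± 0.04.

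Markers of other liver and blood cells are given beside the same shares of all genes, 60.0% called, 30.0% higher and 30.1% lower. Over the 3 times, all 6 macrophage markers were higher, with a median log2 difference of 0.61, and Marco the most at 1.80. Their summed linear level, relative to the 75th percentile, ran from 25.8 to 74.2 in ZT8 controls and from 39.1 to 213 in ZT8 knockouts, from 22.4 to 75.7 and from 52.96 to 151 at ZT12, and from 29.0 to 116 and from 61.3 to 241 at ZT16. All 3 tested B cell markers were higher, with a median of 1.14, 3 of 4 neutrophil and monocyte markers, 5 of 6 endothelial markers and 3 of 7 stellate cell and fibroblast markers. T and NK cell markers gave 2 higher and 1 lower of 4. Bile duct markers gave 1 higher of 5, red cell markers 1 higher and 1 lower of 4, and hepatocyte markers 2 higher and 2 lower of 6. Cd8a and Cd79a were too dim to test. The part of other cell types in the results was not tested.

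The B cell sums ran from 0.957 to 1.23 in ZT8 controls and from 1.37 to 3.48 in ZT8 knockouts, from 0.516 to 1.38 and from 0.939 to 2.57 at ZT12, and from 0.397 to 0.654 and from 0.905 to 2.67 at ZT16. The neutrophil and monocyte sums ran from 3.87 to 7.27 and from 5.15 to 25.3 at ZT8, from 6.13 to 7.93 and from 5.15 to 16.1 at ZT12, and from 4.63 to 10.7 and from 5.73 to 10.4 at ZT16. On the 4 arrays that stand apart, the B cell sum ranked first in its group on 3 and second on the other. The bile duct sum ranked first on 2 and second on 2. The neutrophil and monocyte, the stellate cell and fibroblast, and the red cell sums each ranked first on 2 and last on none. The T and NK cell sum was the lowest of its group on 3 of the 4 arrays. A linear sum weighs the brightest marker of a list most. In ZT8 knockouts the median T and NK cell sum was 30.6, against 32.9 in controls. The mean log2 level of the same markers was 0.90, against 0.61. The endothelial and hepatocyte sums were each the lowest on 2 and the highest on 1. The macrophage sum was 111 on ZT8 replicate 3, 87.8 and 151 on ZT12 replicates 1 and 6, and 90.2 on ZT16 replicate 6, highest of its group only for ZT12 replicate 6. Without the 4 arrays, the macrophage and B cell markers were still all higher, with medians of 0.54 and 0.94. Neutrophil and monocyte markers then gave 2 higher of 4, with a median of 0.43 against 0.70 with all arrays. Bile duct markers gave 1 higher and 1 lower of 5, with a median of -0.15 against 0.03. T and NK cell markers gave 3 higher and 1 lower of 4, and the remaining lists kept their counts.

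Deviations of these lists were also set against those of Mki67. The neutrophil and monocyte list had r = 0.74 (permutation p = 2e-05, adjusted p = 3.75e-05; rho = 0.68, permutation p = 2e-05, adjusted p = 4.29e-05) and r = 0.59 without the 2 mice. The macrophage list had r = 0.63 (permutation p = 3e-05, adjusted p = 5.4e-05; rho = 0.65, permutation p = 1e-05, adjusted p = 2.37e-05) and 0.58 without them. The B cell list had r = 0.60 (permutation p = 1e-04, adjusted p = 1.67e-04; rho = 0.56, permutation p = 6.4e-04, adjusted p = 0.00111) and 0.51 without them. The hepatocyte list had r = -0.47 (permutation p = 0.00363, adjusted p = 0.00527; rho = -0.34, permutation p = 0.0451, adjusted p = 0.0655) and -0.25 without them. The T and NK cell list had r = 0.51 (permutation p = 0.00167, adjusted p = 0.00259), and 0.35 without the 2 mice. Its rho was 0.42 (permutation p = 0.0116, adjusted p = 0.018). Differences between these correlations were not tested.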

How the data were processed

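Liver RNA of each mouse was labelled with Cy3 and read on 1 SurePrint G3 array, per the labels' protocols. Spot brightness was deposited as intensity, after Agilent's background subtraction and before any scaling across arrays, per the file headers. Other deposited columns flag each spot, with 0 or 1, as outlying, saturated or well over background. The table of log2 values that the authors processed served as an alternative. Feature Extraction 10.10.1.1 and limma are named in the submitters' processing notes. Probe positions are on build mm9, as in the files.

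Here, the log2 signal had the array's own 75th percentile (control spots excluded) subtracted. Spots with an outlier flag were dropped before spots of 1 probe were averaged. Probes well above background on at least 6 of 36 arrays were kept (34771 of 56605), 93 with a missing value were dropped, and the brightest probe stood for its gene (22916 genes). Dropping the 93 was decided after the data were seen, and none of them belonged to the cell cycle genes. Arrays give no counts, so precision rests on their number.

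Models were fitted with limma 3.58.1 (R 4.3.3) and moderated by eBayes, with 6 group means and the 3 wash batches as fixed effects, over all 36 arrays (28 residual degrees of freedom). P-values were adjusted by Benjamini-Hochberg over all genes within each of 7 tests: genotype at each time, genotype over the 3 times, time within each genotype (F test) and genotype by time (F test). The fit was tested on simulated data. Fully reported are cell cycle genes called in any test, and by level the 12 of them with the smallest adjusted p over the 3 times or by time. From each further list the 3 genes with the smallest adjusted p in any test are named. A gene not well above background on any array of a group is given as a bound. The genes, lists and tests were chosen with earlier results of these data known. Alternatives were other background corrections, scalings, filters and probe summaries, slide, wash batch or replicate terms, array weights, the groups compared alone, the authors' table and each array left out. Leaving out 4 arrays together and slide as a fixed block were added after the data were seen.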

Additional observations from a re-analysis of the deposited data

Results flagged for a closer look

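In a check for a mouse far from the other 5 of its group, 78 sets of 6 values were examined (the 12 genes described by level and the median of the tested genes, in 6 groups). Of these, 12 held such a mouse, and 11 of the 12 were on the 4 knockout arrays that stand apart. Chance flags about 1 in 20 sets. The 78 sets share mice and genes that move together, so the 12 cannot be weighed against that rate. The 4 arrays were picked for high values in these same genes, so their part of the 12 follows from that choice. ZT8 knockout replicate 3 lay above its group in Mki67 (0.77, others -2.17 to -1.42), Mcm2 (0.058, others -2.22 to -1.86), Ccna2 (-0.40, others -3.23 to -2.55), Plk1 (-0.27, others -2.83 to -2.16), Rrm1 (0.95, others -0.48 to -0.11) and Rrm2 (1.71, others 0.23 to 0.70). Its median over the tested genes was 0.26, against -2.17 to -1.67 in the others.

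ZT16 knockout replicate 6 lay above its group in Plk1 (-0.71, others -2.74 to -2.37), Ccna2 (-1.17, others -3.43 to -3.03) and Mki67 (0.049, others -1.83 to -1.26). Its median was -0.63, against -2.47 to -1.91. ZT16 control replicate 6 lay below its group, with a median of -2.61 against -2.30 to -2.20.

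The genotype effect differed between times by the F test for Wee1, whose ZT16 minus ZT8 difference of the effect was -2.19 (adjusted p = 8.82e-06), and for Rrm2, where it was -1.27 (adjusted p = 0.00906).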

How the results depend on the processing

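Direction and call were followed under each alternative for 46 results of the 12 genes described by level. Over 2283 such values, 2213 kept direction and call, 70 kept direction and lost the call, none reversed, and 37 of the 46 results never lost it. The Mki67 call at ZT8 was lost most often, in 27 of 50 alternatives. Next came the Cenpa call at ZT8, lost in 14, and the Mki67 call at ZT12, lost in 12. With normexp background correction the differences over the 3 times shrank to 0.54 for Plk1, 0.62 for Mcm2, 0.47 for Ccna2, 0.69 for Mki67 and 0.30 for Cenpa, all still called, and in the authors' table they were 0.79 for Plk1 and 0.70 for Ccna2. Levels of dim probes are limited by signal over background, so their folds depend on that step.

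The count of genes called for time in controls, 6, was 11 with only the groups compared in the fit and 13 without the 4 arrays. No control was left out in either fit, but the spread shared by all groups includes that of the knockouts. Shares of all genes are not given for these alternative fits, so their counts are a description. Without the 4 arrays, the genotype effect by time was called for 6 genes in place of 2. Leaving out each array in turn gave 7 to 16 genes called at ZT8, 11 to 20 at ZT12, 17 to 24 at ZT16, 26 to 30 over the 3 times, 4 to 7 for time in controls, 8 to 14 for time in knockouts and 2 to 4 for genotype by time. The lowest ZT8 count came without ZT8 control replicate 2, and the 4 genes by time came without ZT8 knockout replicate 3.

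Mice with the same replicate number did not deviate together (median r = 0.02, against 0.01 for other pairs, with 5 of 36 arrays closest to their own number), so the numbers were not taken as pairs. With the replicate number as a block, 28 genes were called over the 3 times, 9 at ZT8, 16 at ZT12, 20 at ZT16, 5 for time in controls, 10 for time in knockouts and 2 for genotype by time. With slide as a fixed block in place of wash batch, 29 were called over the 3 times and 13 at ZT8.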
